A study of Homo sapiens with 4 samples.

Results

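The zinc finger genes of chromosome 19 were described here across 2 lists of open chromatin regions in MCF10A cells. MCF10A is an immortalised, non-transformed line of human mammary epithelium. The members were the protein-coding genes of GENCODE release 44 on chromosome 19 whose symbol is ZNF followed by digits only, 240 of 19970 coding genes on chromosomes 1 to 22 and X. The cells carried a tet-inducible TAZ-4SA transgene, an active form of the transcriptional coactivator TAZ, in both conditions. They were treated for 72 h with 0.05 µg/mL doxycycline (Dox) or left without it (No Dox), and 50000 cells per reaction went into ATAC-seq, an assay that maps where a transposase can insert into DNA. The 2 biological replicates of each condition had been pooled by the authors before peaks were called, so each condition has 1 peak list, replicate spread is unknown and no difference below was tested. In such bulk libraries, fewer cells with an open site and less opening per cell cannot be told apart.

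Most members encode proteins with an array of C2H2 fingers, each finger reading a few bases of DNA, and many also carry a KRAB box at the start of the protein. The KRAB box recruits TRIM28 (KAP1), which brings the H3K9 methyltransferase SETDB1 and heterochromatin protein 1 to the bound DNA, and transposable elements are among the best known targets. The genes arose by tandem duplication and stand in clusters along chromosome 19, where the 3′ exons that code for the finger arrays are known to be covered by H3K9me3 in many cell types, while the promoters lie outside that cover. In these data, a KRAB box pattern was found in 167 of the 240 translated reading frames. The number of finger patterns per protein had a median of 12 and ran up to 39, in ZNF729. Runs of at least 5 members with gaps of at most 1 Mb between transcription start sites (TSSs) were named clusters A to I in order of position along the chromosome.

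The promoter sequences are shown first because one of their features set the members apart from coding genes as a whole. In addition, promoters of related sequence took different states. A RefSeq promoter sequence (GRCh38.p14, 250 bases before to 50 after the start) was matched for 210 of the 240 members. The motif CCGGAAG, or CTTCCGG on the other strand, is the core bound by factors of the ETS family. It lay in 105 of the 240 member promoters (43.8%), against 14.1% of the promoters of all coding genes, in windows of the same 300 bases around the canonical GENCODE start. Among members it was in 75 of 171 promoters with a peak in both conditions (43.9%) and in 26 of 56 without a peak (46.4%). The TEAD motif ACATTCC or GCATTCC, the DNA sequence through which TAZ is brought to chromatin, was in 12 member promoters (5.0%), against 5.05% of all promoters, and the AP-1 motif TGACTCA or TGAGTCA was in 4 (1.67%), against 3.58%. The YY1 motif GCCATNTT was in 12.9% of member promoters and in 8.13% of all, and the GC box GGGCGG in 69.2% and in 61.3%. All motifs were sought on both strands, and the ETS and TEAD motifs are in capitals in the sequences.

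The first pair of promoters is that of ZNF558 in cluster B (chr19:8832255-8832554, minus strand), which had the highest fold of all members in both lists, and that of ZNF582 in cluster I (chr19:56393485-56393784, minus strand), which had no peak in either list. Each holds 2 ETS motifs, with 34 CpG dinucleotides in ZNF558 and 30 in ZNF582.
ZNF558: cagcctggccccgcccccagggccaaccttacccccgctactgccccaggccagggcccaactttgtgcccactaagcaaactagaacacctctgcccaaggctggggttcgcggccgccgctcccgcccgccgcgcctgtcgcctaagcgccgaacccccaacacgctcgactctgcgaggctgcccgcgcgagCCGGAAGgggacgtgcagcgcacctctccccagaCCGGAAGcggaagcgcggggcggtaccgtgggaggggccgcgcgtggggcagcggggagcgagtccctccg
ZNF582: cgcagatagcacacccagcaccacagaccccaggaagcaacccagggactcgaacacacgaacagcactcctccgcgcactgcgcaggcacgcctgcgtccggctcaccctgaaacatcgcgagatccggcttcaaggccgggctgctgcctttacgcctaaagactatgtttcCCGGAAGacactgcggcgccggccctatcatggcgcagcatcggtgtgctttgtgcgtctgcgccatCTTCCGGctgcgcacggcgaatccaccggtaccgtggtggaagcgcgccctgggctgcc

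The next 3 promoters belong to members of cluster D and are close in sequence but had 3 different states. ZNF726 (chr19:23914636-23914935, plus strand) had a promoter peak in Dox alone, ZNF724 (chr19:23250345-23250644, minus strand) had one in both lists, and ZNF730 (chr19:23116775-23117074, plus strand) had none. The ZNF726 peak was weak, with a fold of 2.94, higher than few peaks of the Dox list (5.54th percentile). In pairwise global alignments their identity was 74.8% between ZNF724 and ZNF726, 79.4% between ZNF724 and ZNF730 and 74.3% between ZNF726 and ZNF730, while ZNF724 and ZNF558 were 51.7% identical. All 3 carry the ETS motif in one block of 16 bases, CTTCCGGGATTTGGCG. This block was chosen after the sequences were seen. It lay in 5 of the 37 promoters of cluster D, in 0 of the 203 members outside it and in 11 of 19970 coding genes. Its 5 members were ZNF726 with a peak in Dox alone, ZNF724 and ZNF675 with a peak in both lists, and ZNF723 and ZNF730 with none.
ZNF726: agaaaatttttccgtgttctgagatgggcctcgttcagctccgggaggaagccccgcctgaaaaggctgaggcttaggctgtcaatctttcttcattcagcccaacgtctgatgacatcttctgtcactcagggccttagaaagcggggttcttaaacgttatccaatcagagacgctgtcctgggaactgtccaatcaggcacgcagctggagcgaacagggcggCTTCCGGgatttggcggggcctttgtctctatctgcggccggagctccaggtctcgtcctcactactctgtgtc
ZNF724: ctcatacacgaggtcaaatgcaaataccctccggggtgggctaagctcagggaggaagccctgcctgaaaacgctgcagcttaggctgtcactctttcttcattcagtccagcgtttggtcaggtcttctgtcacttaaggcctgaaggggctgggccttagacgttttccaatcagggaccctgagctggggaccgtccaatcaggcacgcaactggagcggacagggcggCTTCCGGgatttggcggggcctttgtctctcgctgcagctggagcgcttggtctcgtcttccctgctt
ZNF730: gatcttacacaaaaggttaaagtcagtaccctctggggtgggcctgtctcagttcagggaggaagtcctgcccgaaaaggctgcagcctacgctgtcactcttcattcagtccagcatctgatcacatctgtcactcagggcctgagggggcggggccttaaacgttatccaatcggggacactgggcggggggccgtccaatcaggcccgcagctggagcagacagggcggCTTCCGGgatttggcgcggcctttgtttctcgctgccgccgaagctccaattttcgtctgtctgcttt

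A last pair shows promoters of members with a peak in No Dox alone. ZNF439 in cluster C (chr19:11848476-11848775, plus strand) holds 2 TEAD motifs and 12 CpG dinucleotides, and the stretch shown lies outside its No Dox peak. ZNF583 in cluster I (chr19:56404082-56404381, plus strand) lies under its No Dox peak, holds neither an ETS nor a TEAD motif and has 30 CpG dinucleotides.
ZNF439: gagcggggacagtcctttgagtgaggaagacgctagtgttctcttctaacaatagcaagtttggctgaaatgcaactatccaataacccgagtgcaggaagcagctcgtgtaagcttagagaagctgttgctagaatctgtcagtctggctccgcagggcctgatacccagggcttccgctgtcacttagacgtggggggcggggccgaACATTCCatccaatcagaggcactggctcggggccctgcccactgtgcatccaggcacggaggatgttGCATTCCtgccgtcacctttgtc
ZNF583: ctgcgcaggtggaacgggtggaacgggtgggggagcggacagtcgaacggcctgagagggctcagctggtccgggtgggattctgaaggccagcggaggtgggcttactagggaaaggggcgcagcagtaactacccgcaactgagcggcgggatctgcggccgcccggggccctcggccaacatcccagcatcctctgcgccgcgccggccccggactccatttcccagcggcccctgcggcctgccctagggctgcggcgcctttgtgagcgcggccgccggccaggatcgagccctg

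The Dox list held 84353 peaks and the No Dox list 117740, yet chromosome 19 held 1909 peaks in Dox and 1563 in No Dox. The lists give no read counts, so depth per library is unknown. A peak's fold is its enrichment over background at the summit, and folds of the 2 lists stand over different backgrounds. They were therefore compared as the percentile of a peak within its own list, where 100 is the highest fold. The median fold was 4.07 in Dox and 3.81 in No Dox. A percentile depends on every peak of its list, so each difference is set beside that of all coding genes. Of 12 markers of mammary epithelium, 10 had a promoter peak in both lists, TP63 had one in Dox alone and KRT14 had none. Of the immune markers, CD14 had a promoter peak in both lists, CD79A in Dox alone, ITGAM and PTPRC in No Dox alone, and 3 had none. Of the endothelial markers, KDR had one in both lists and 4 had none.

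To learn how many of these genes have open promoters and whether TAZ activation changes this, each member was classed by peaks within 1 kb of any of its TSSs. Most member promoters were open in both conditions and few switched. A peak was present in both lists for 171 of 240 members (71.3%, 95% Clopper-Pearson interval 65.1 to 76.9%), beside 65.3% of all coding genes. No peak was present in either list for 56 members (23.3%, 18.1 to 29.2%), beside 24.9% of all coding genes. A peak in Dox alone was found for 7 members (2.92%, 1.18 to 5.92%), beside 5.85% of all coding genes, and a peak in No Dox alone for 6 members (2.5%, 0.923 to 5.36%), beside 3.92%. The intervals cover counting error only.

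The other 1236 coding genes of chromosome 19 had a larger share of promoters open in Dox alone. Among them 118 promoters (9.55%, 7.97 to 11.3%) had a peak in Dox alone and 33 (2.67%) in No Dox alone. Of these 151 promoters with a peak in a single condition, 118 were open in Dox (78.1%, 70.7 to 84.5%). For the members this was 7 of 13 (53.8%, 25.1 to 80.8%, an interval that holds the 78.1%), and over all coding genes 1168 of 1951 (59.9%). With lists of equal length, 8 members were open in Dox alone and 3 in No Dox alone, beside 1494 and 517 of all coding genes. The other genes of chromosome 19 were not counted in that setting. The ZNF genes of other chromosomes were open in both lists more often, at 201 of 236 (85.2%), with 6 promoters open in Dox alone and 1 in No Dox alone. Neither difference was tested.

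**Figure D1:**
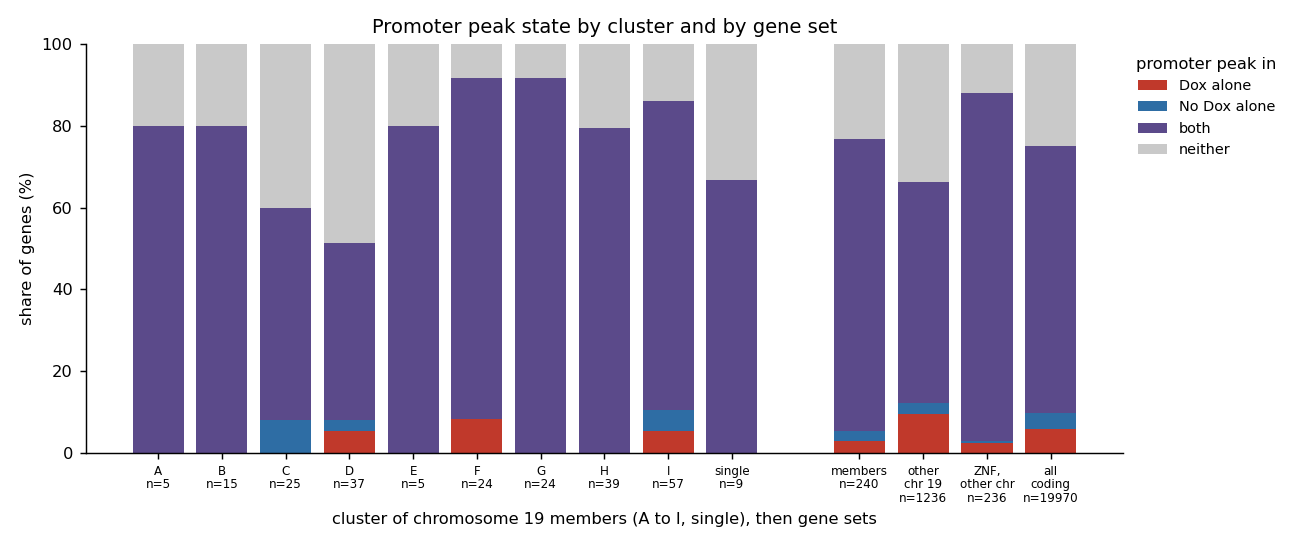
Share of genes (%) by promoter peak state, with the members of each chromosome 19 cluster (A to I, and the 9 members outside clusters) on the left and gene sets on the right; n is the number of genes. Cluster D stands out with 18 of 37 members without a promoter peak, and the other coding genes of chromosome 19 have the tallest Dox-alone segment of the 4 gene sets, 9.55%.

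The members with a promoter peak in Dox alone were ZNF579, ZNF569, ZNF570, ZNF667, ZNF471, ZNF726 and ZNF626. ZNF579 had the highest fold among them, 5.43, at the 68.4th percentile of the Dox list, in a peak of 726 bp (chr19:55580326-55581051). ZNF569 and ZNF570, a neighbouring pair on opposite strands, shared 1 Dox peak of 566 bp with a fold of 3.62 at the 33.3rd percentile, and count as 1 event. ZNF667 reached a fold of 3.39 at the 24.0th percentile, and ZNF471 and ZNF726 a fold of 2.94 at the 5.54th percentile. ZNF626 had a fold of 2.71, at the 0.999th percentile and so among the weakest peaks of the whole list. All 7 except ZNF579 thus stood at or below the 33.3rd percentile of the Dox list, and these 6 also carried the KRAB box pattern.

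The members with a promoter peak in No Dox alone were ZNF583, ZNF835, ZNF98, ZNF439, ZNF470 and ZNF709. ZNF583 had a fold of 4.02 at the 57.7th percentile of the No Dox list, and ZNF835 one of 3.81 at the 52.3rd percentile in the widest of these peaks, 780 bp. ZNF98 had a fold of 3.60 at the 45.4th percentile. ZNF439, ZNF470 and ZNF709 each had a fold of 3.18 at the 26.2nd percentile. The median percentile of these single-condition peaks was 24.0 for Dox alone and 35.8 for No Dox alone, each in its own list, while member promoters open in both had medians above 90 in each list. The sets depended on the peak threshold. With peaks of a q-value of 1e-05 or less, 5 members were open in Dox alone, beside 5.47% of all coding genes, and 3 in No Dox alone, beside 3.29%, and 1 member of each set above was among them (ZNF579 and ZNF583).

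Of the 13 single-condition promoters, 5 lay in one stretch of cluster I, from ZNF582 to ZNF835 (chr19:56393538-56671783, 278 kb), which was picked after its states were seen. In order of position, ZNF582 had no promoter peak, ZNF583 had one in No Dox alone, ZNF667 and ZNF471 in Dox alone, ZNF470 in No Dox alone, ZNF71 in both and ZNF835 in No Dox alone. ZNF71 was the exception in strength as well, with a fold of 20.1 in Dox at the 98.5th percentile and of 28.0 in No Dox at the 99.4th percentile.

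The 1 kb limit decided few states. ZNF536, a zinc finger gene best known from brain, had its nearest Dox peak 1109 bp from a TSS and was the only member that gained a state at limits of 2 kb and 3 kb, as Dox alone. The next members outside the limit in Dox were ZNF625 at 5842 bp and ZNF358 at 6405 bp, and in No Dox ZNF625 at 6008 bp, ZNF579 at 6343 bp and ZNF814 at 6878 bp. Just inside were ZNF471 at 201 bp, ZNF404 at 191 bp and ZNF667 at 56 bp in Dox, and ZNF439 at 98 bp and ZNF404 at 63 bp in No Dox. Using only the 5′ end of each gene record left 151 members open in both lists and 80 in neither. That setting was not counted over all coding genes, so how members compare with them there is unknown.

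Member promoters that were open in both lists held strong peaks. Their median percentile was 91.3 in Dox and 95.3 in No Dox, against 77.2 in Dox and 81.6 in No Dox for the other coding genes of chromosome 19, and 85.5 in Dox and 89.7 in No Dox for all coding genes. ZNF558 had the highest fold in each list, 30.7 in Dox and 40.9 in No Dox, in a peak that also covered a TSS of MBD3L1. ZNF444, which binds a regulatory element of a scavenger receptor gene, followed with 27.4 in Dox and 36.2 in No Dox. ZNF254 had 25.8 in Dox and 30.9 in No Dox, and ZNF724 had 23.3 in Dox and 28.6 in No Dox, both in cluster D. ZNF333 (23.3 in Dox, 22.9 in No Dox) completed the 5 highest in Dox, and ZNF799 (19.7 in Dox, 29.9 in No Dox) the 5 highest in No Dox. Each of these 6 promoters stood above the 98th percentile of both lists.

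**Figure D2:**
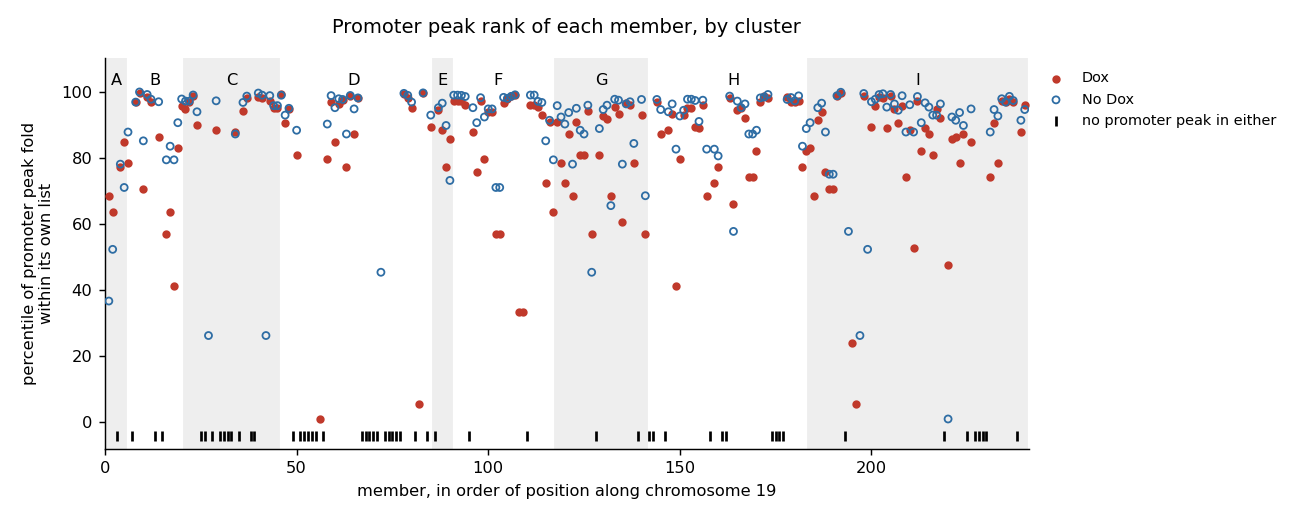
Percentile of the promoter peak's fold within its own list (0 to 100) for each of the 240 members in order of position along chromosome 19; filled red points are Dox, open blue circles are No Dox, black ticks mark the 56 members with no promoter peak in either list, and letters name the clusters. Most points lie above the 80th percentile in both lists, and the ticks gather in clusters C and D.

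The percentile of member promoters was mostly lower in Dox. It was lower in 154 of the 171 members open in both lists (90.1%), against 9415 of 13037 coding genes (72.2%), with a median difference, Dox minus No Dox, of -2.72 points for members and -2.04 points for all coding genes. When peaks were ranked only among the promoter peaks of coding genes, the percentile was lower in Dox in 106 of 171 members (62.0%), against 45.9% of all coding genes, and the median difference was -2.39 points for members and 0.74 points for all coding genes. Large shifts were no more frequent among members than elsewhere, but the room for gains was unlike. A percentile cannot pass 100, and the No Dox median was 95.3 for members and 89.7 for all coding genes. A gain of 10 points was thus out of reach for more of the members, and the shares with such a gain are not like for like. A percentile at least 10 points higher in Dox was found for 6 members (3.51%), beside 7.43% of all coding genes, and one at least 10 points lower for 31 members (18.1%), beside 19.3%.

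The 6 members with the largest gains were ZNF671, ZNF554, ZNF77, ZNF792, ZNF222 and ZNF555, and 3 of them, ZNF554, ZNF77 and ZNF555, form most of cluster A. ZNF671 had a fold of 4.07 at the 47.6th percentile in Dox and of 2.54 at the 1.01st percentile in No Dox. ZNF554 stood at the 68.4th percentile in Dox and the 36.7th in No Dox, ZNF77 at 84.8 in Dox and 71.0 in No Dox, and ZNF555 at 63.5 in Dox and 52.3 in No Dox. ZNF57, the other open member of cluster A, stood at 77.2 in Dox and 78.0 in No Dox. ZNF792 of cluster E had a percentile of 85.5 in Dox and 73.1 in No Dox, and ZNF222 of cluster G had 56.9 in Dox and 45.4 in No Dox.

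The 6 members with the largest losses were ZNF350, ZNF561, ZNF773, ZNF426, ZNF121 and ZNF428. ZNF350, known as ZBRK1, a partner of BRCA1 in repression, stood at the 41.2nd percentile in Dox and the 82.6th in No Dox, and its peak was 547 bp wide in Dox and 1012 bp in No Dox. ZNF561 stood at the 41.2nd percentile in Dox and the 79.3rd in No Dox, and its cluster B neighbours ZNF426 at 56.9 in Dox and 79.3 in No Dox and ZNF121 at 63.5 in Dox and 83.5 in No Dox. ZNF773 had a percentile of 52.7 in Dox and 87.7 in No Dox, and ZNF428 had 72.4 in Dox and 90.2 in No Dox. The clusters differed accordingly. The median difference was 12.5 points over the 4 open members of cluster A and -8.41 points over the 12 of cluster B, 5 of which were at least 10 points lower in Dox, and it lay between -4.80 and -0.87 points in the other 7 clusters.

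Peaks at member promoters were also narrower in Dox. The median width was 972 bp in Dox and 1116 bp in No Dox, against 1073 bp in Dox and 1111 bp in No Dox for all coding genes. The peak was narrower in Dox at 131 of 171 members (76.6%), against 56.4% of all coding genes open in both lists and 47.3% of the other such genes of chromosome 19. The widest member peaks in Dox were those of ZNF787 (2313 bp), ZNF700 (2092 bp), ZNF799 (1958 bp) and ZNF558 (1796 bp), and in No Dox those of ZNF524 (2671 bp), ZNF787 (2549 bp), ZNF254 (2434 bp) and ZNF888 (2417 bp). ZNF254, at 1469 bp in Dox and 2434 bp in No Dox, and ZNF524, at 1697 bp in Dox and 2671 bp in No Dox, were among those that differed most between their lists.

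Base composition moved with these values. Member promoters open in both lists had a median GC content of 58.6%, against 63.8% for other coding genes of chromosome 19. Among members with promoter GC under 55%, 36 of 44 peaks were narrower in Dox (81.8%), against 65.6% of other coding genes in that range. At 55 to 60% the shares were 83.9% of members (52 of 62) and 59.1% of other coding genes, and at 60 to 65% they were 65% of members (26 of 40) and 55.4%. At 65% or more, 17 of 25 members (68%) had the narrower peak in Dox, against 52.2%. The members did not stand above every like set. Among ZNF genes of other chromosomes with GC under 55%, 23 of 27 peaks were narrower in Dox (85.2%) with a median percentile difference of -5.82 points, and among coding neighbours inside the cluster spans at 60 to 65%, 16 of 20 were (80%). The median percentile difference of members went with GC as well, at -4.89 points under 55% and -0.76 points at 65% or more, against -3.93 and -1.49 points for other coding genes in those ranges. Ranked only among promoter peaks, members had medians of -3.69 and 2.05 points there, against -1.15 and 1.87 points. At 65% or more, that rank was lower in Dox in 11 of 25 members (44%), against 41.1% of other coding genes. The 90 coding genes inside the cluster spans that are not members and were open in both lists had a median difference of -3.50 points, and 67.8% of their peaks were narrower in Dox. The part of base composition or of position in these differences was not tested.

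**Figure D3:**
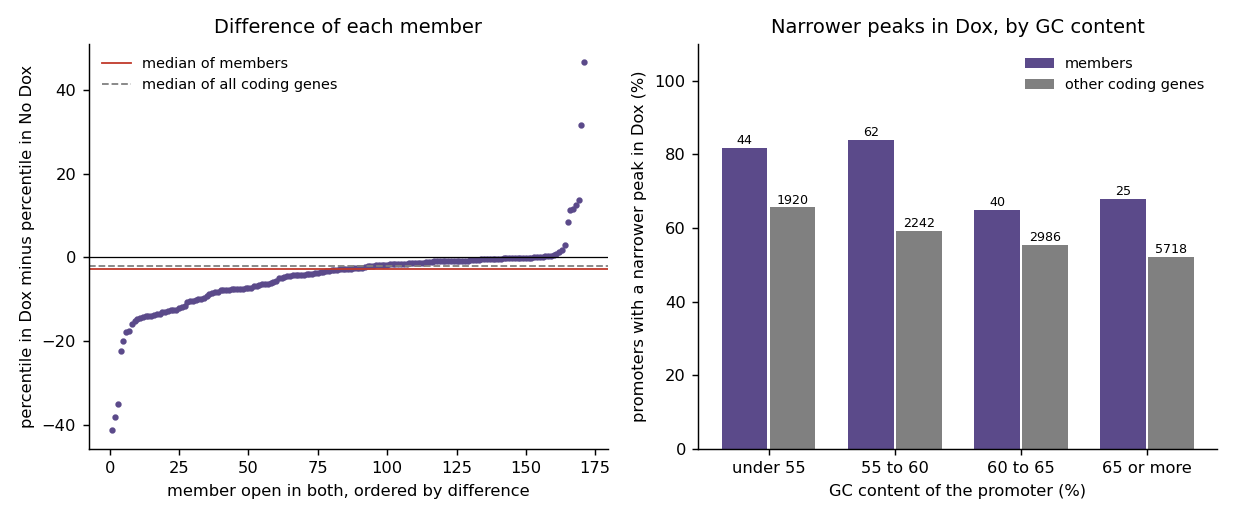
Left, the percentile in Dox minus the percentile in No Dox (points) for each of the 171 members open in both lists, ordered by that difference, with the medians of members (-2.72) and of all coding genes (-2.04) as lines; right, the share (%) of promoters whose peak was narrower in Dox, by GC content of the promoter, for members and other coding genes, with the number of genes above each bar. Members have the taller bar of each pair, while ZNF genes of other chromosomes, not drawn, reach 85.2% under 55% GC.

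Some of these peaks were shared. Of the 178 members with a promoter peak in Dox, 18 shared it with another member and 29 with a coding gene that is no member, and of the 177 in No Dox, 16 and 33 did. Among the 127 members open in both lists whose peak lay at no other coding gene, the percentile was lower in Dox in 113 and the peak narrower in Dox in 100.

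Promoter states were then followed along the chromosome. The 9 clusters held 231 members, from 5 in clusters A and E to 57 in cluster I, the block at the end of the long arm, from ZNF628 to ZNF446. The share of members without a promoter peak in either list ran from 8.33% in clusters F and G (2 of 24 each) to 40% in cluster C (10 of 25, from ZNF653 to ZNF490) and 48.6% in cluster D (18 of 37, interval 31.9 to 65.6%).

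Cluster D (chr19:19648796-24053405, from ZNF101 to ZNF254, with 20 kb on either side), next to the centromere on the short arm, had the fewest regions per Mb of the 9. It held 10.7 regions per Mb over 4.40 Mb, against 45.1 regions per Mb in chromosome 19 outside the clusters and 27.9 over all cluster spans. Peaks covered 0.527% of it in Dox and 0.852% in No Dox. The longest stretch without a peak was 1039 kb in Dox (chr19:21767877-22806873) and 570 kb in No Dox (chr19:21941191-22510752). ZNF43, ZNF208, ZNF257, ZNF676 and ZNF729, which stand next to each other, had no promoter peak in either list. Their proteins had 39 finger patterns in ZNF729, 36 in ZNF208, 19 in ZNF43, 14 in ZNF676 and 12 in ZNF257. ZNF91, a primate repressor of SVA elements with 32 finger patterns, was an open exception in the same cluster, with a fold of 18.3 in Dox at the 98.0th percentile and of 22.7 in No Dox at the 98.8th percentile. The 16 members of cluster D open in both lists had a median percentile of 95.7 in Dox and 97.2 in No Dox, below only cluster F in each list (95.9 in Dox, 98.0 in No Dox).

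Members without a promoter peak stood far from peaks of either list. Of the 56 without a promoter peak, 38 had no peak of either list within 20 kb of a TSS, against 1675 of the 4982 coding genes without one, and the median distance to the nearest peak was 30.7 kb, against 11.4 kb. Of the 56, 9 were the nearest member to some region within 20 kb. ZNF302 had 1 region of Dox alone and 3 of No Dox alone, ZNF358 had 1 Dox-only and 3 shared regions, ZNF492 had 2 No-Dox-only regions, and ZNF135 had 1 of each condition-only kind. ZNF114 had 1 Dox-only and 1 shared region, ZNF536 had 1 Dox-only region, ZNF606 had 1 No-Dox-only region, and ZNF132 and ZNF763 had 1 shared region each. Some of these regions lay nearer to a TSS of another coding gene, as all those of ZNF358 and ZNF302 did.

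CpG content is known to go with promoter opening in general. Over 1000 bp at the canonical TSS, the ratio of observed to expected CpG was under 0.6 for 49 members, of which 24 had no promoter peak in either list (49.0%, 34.4 to 63.7%), against 32 of 191 at a ratio of 0.6 or more (16.8%, 11.8 to 22.8%). Over all coding genes the same shares were 55.5% and 9.46%. In cluster D 8 of 37 members reached 0.6, but its closed and its open members did not separate by this ratio, with medians of 0.544 in members without a peak and 0.513 in the rest. In cluster I 54 of 57 members reached 0.6, and there too the 8 members without a peak had a median of 0.762, against 0.753 in the rest. ZNF302, closed in both lists, had a ratio of 0.990.

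**Figure D4:**
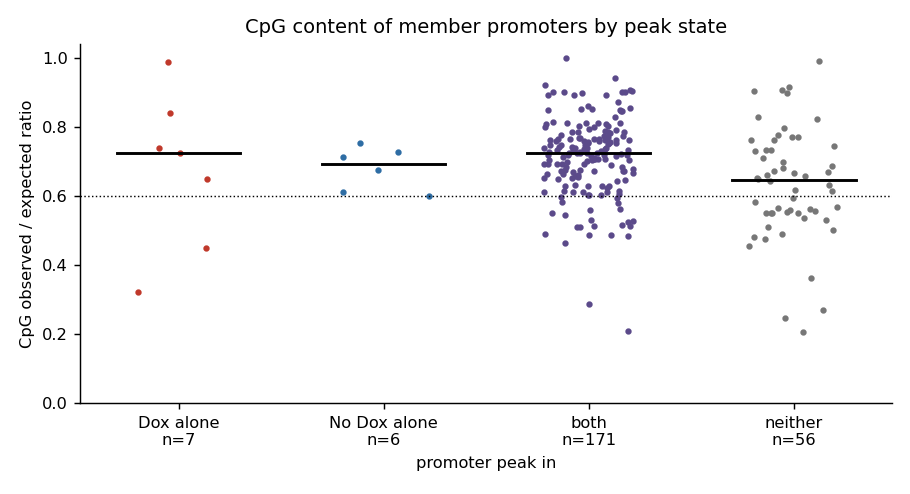
Ratio of observed to expected CpG over 1000 bp at the canonical TSS for each member, by the list that held its promoter peak; points are members with horizontal jitter only, black bars are medians and the dotted line marks 0.6. Members without a peak spread over the same range as open members but include 24 of the 49 below the line.

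The proteins were compared in the same way. Of the 167 members with the KRAB box pattern, 44 had no promoter peak in either list (26.3%, 19.8 to 33.7%), against 12 of 73 without the pattern (16.4%, 8.79 to 27.0%). Members with the pattern were unevenly spread, at 33 of 37 in cluster D and 2 of 24 in cluster G. The pattern is fixed, so a member without it may still encode a KRAB box. Whether the difference goes beyond that between the clusters was not tested. The share without a peak was 28.3% (17 of 60) in members with under 10 finger patterns, 22.3% (23 of 103) with 10 to 14 and 20.8% (16 of 77) with 15 or more, and the 3 intervals overlapped.

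Peaks of both lists that overlapped or touched were merged into regions, and 315 regions lay within 20 kb of a member TSS. Most were present in both conditions, and in the rest neither kind prevailed under every setting. Of the 315, 226 (71.7%) were shared, 43 (13.7%) were Dox-only, beside 28% of the regions within 20 kb of any coding TSS, and 46 (14.6%) were No-Dox-only, beside 29.3%. Of the regions found in a single list, Dox-only ones made up 48.3% (37.6 to 59.2%) for members, against 71.1% (727 of 1023, 68.2 to 73.8%) near the other coding genes of chromosome 19 and 48.9% near all coding genes. With the lists shortened to equal length this share was 65.3% for members and 82.7% for the other coding genes of chromosome 19. Of the 315 member regions, 229 lay within 1 kb of a coding TSS, against 20544 of 59077 near all coding genes. Of these 229, 87.8% were in both lists, against 66.9% for all coding genes. Beyond 1 kb of a coding TSS, 27 of the member regions were Dox-only (31.4%), 34 No-Dox-only (39.5%) and 25 in both lists (29.1%). Near all coding genes those shares were 32.4%, 37.7% and 29.9%. By position, the 17.1 Mb of cluster spans held 76 regions of Dox alone and 104 of No Dox alone (42.2% Dox-only, 34.9 to 49.8%). The other 41.5 Mb of the chromosome held 731 and 354 (67.4%, 64.5 to 70.2%). Over all single-list regions of chromosomes 1 to 22 and X, the Dox-only share was 33.0%, below that of the cluster spans.

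The condition-only regions were spread unevenly over the clusters. Near the members of cluster I, 19 were Dox-only and 15 No-Dox-only, and near those of cluster D, 3 were Dox-only and 15 No-Dox-only. Over the whole span of cluster D, 5 regions were Dox-only and 19 No-Dox-only (20.8% Dox-only, 7.13 to 42.2%). That interval holds the 33.0% found over all regions. In cluster D the No-Dox-only regions stood near few genes, with 4 at ZNF14 and 3 each at ZNF98 and ZNF254. Without cluster D, the Dox-only share near members was 56.3%, from 40 Dox-only and 31 No-Dox-only regions. Cluster H, with 39 members, had 41 shared regions beside 1 Dox-only region and 0 No-Dox-only.

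**Figure D5:**
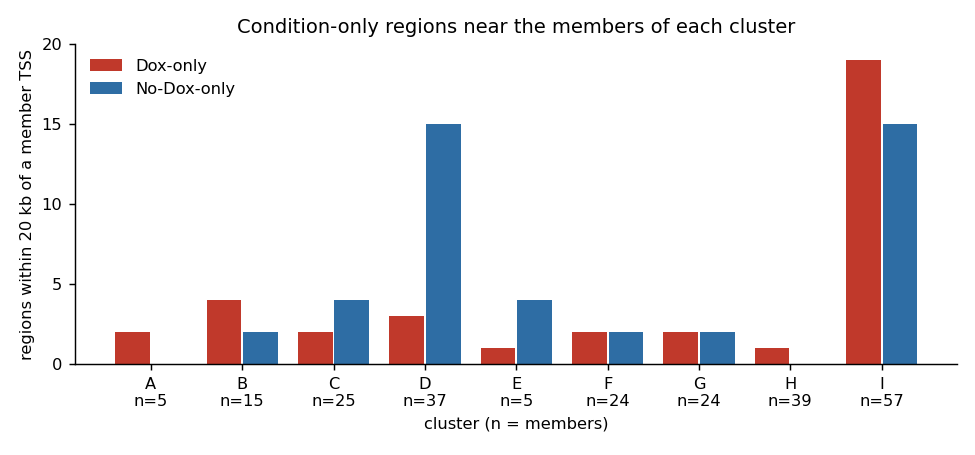
Number of condition-only regions within 20 kb of a member TSS in each cluster, with Dox-only in red and No-Dox-only in blue, each region counted once at its nearest member; n is the number of members. Cluster D has 3 in red and 15 in blue, cluster I has 19 and 15, and no other cluster has more than 4 of a kind; members outside the clusters are not drawn.

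The Dox-only region of highest fold more than 1 kb from any coding TSS lay within ZNF331 (chr19:53545205-53545679), 6.42 kb from its nearest TSS, with a fold of 7.46 at the 82.0th percentile. ZNF331 is an imprinted gene in some tissues. Next came a region 15.7 kb from ZNF507 and 7.38 kb from DPY19L3 (chr19:32397771-32398164, fold 6.56), which held a TEAD and an AP-1 motif within 100 bp of its summit, and a region 1.24 kb from ZNF628 (chr19:55474595-55475374, fold 5.88), which held a TEAD motif. A region near ZNF428 and within CADM4 (chr19:43636130-43636517, fold 4.97) held both motifs too. The others were near ZNF114 (chr19:48259884-48260304, fold 4.52) and ZNF14 (chr19:19747790-19748522, fold 4.29).

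Outside promoters of coding genes, the No-Dox-only regions of highest fold were a pair 12.6 and 14.7 kb from ZNF444, closer to GALP (chr19:56169937-56170683, fold 6.14, and chr19:56171986-56172335, fold 5.93). They were followed by regions near ZNF180 and within CEACAM20 (chr19:44512579-44513095), ZNF507 (chr19:32340418-32340815) and ZNF627 (chr19:11587696-11587994), each with a fold of 4.45, and by one within ZNF44 (chr19:12289269-12289515, fold 4.24). Several of these regions have another coding gene nearer than the member.

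ZNF628 was the nearest member to 11 regions, the most of any member, with 5 Dox-only, 2 No-Dox-only and 4 shared. Most of these lay nearer to a TSS of another coding gene (C19orf85, ISOC2, NAT14 or SSC5D) than to one of ZNF628. In all, 55 members were the nearest member to no region, 117 to 1, 39 to 2 and 29 to 3 or more. Over the regions near members, a TEAD motif lay within 100 bp of the summit in 5 of 43 that were Dox-only (11.6%, 3.89 to 25.1%), 3 of 46 that were No-Dox-only (6.52%, 1.37 to 17.9%) and 5 of 226 present in both lists (2.21%). Near all coding genes the shares were 11.2%, 5.46% and 7.91%, in that order. The reversed TEAD sequence CCTTACA or CCTTACG, a control of like composition, was in 2, 1 and 3 of these member regions. The ETS motif was in 65 of 226 shared regions near members (28.8%), against 6.98% near all coding genes. Of these 226, 201 lay within 1 kb of a coding TSS, against 13750 of 25274 shared regions near all coding genes. The TEAD and ETS shares of shared regions thus compare sets of unlike promoter content.

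The finger-coding exons themselves were almost without peaks. The longest coding exon, which in most of these genes codes for the finger array, was touched by a peak more than 1 kb from any coding TSS in 3 members in Dox (1.25%) and in 1 in No Dox (0.417%). Coding genes with a longest coding exon of 1000 to 3000 bp, as 210 of the members have, had such a peak in 168 of 2600 in Dox (6.46%) and in 135 in No Dox (5.19%). Over all coding genes, whose longest coding exon had a median of 309 bp, against 1533 bp for members, the shares were 2.97% in Dox and 2.38% in No Dox. The members in Dox were ZNF565 (chr19:36182469-36183733), ZNF628 (chr19:55481201-55484370) and ZNF714 (chr19:21116807-21118329), and in No Dox ZNF536 (chr19:30443563-30445732). How many read pairs these similar exons could place was not tested.

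Among 20 genes for KRAB cofactors and the H3K9me3 and DNA methylation machinery, 18 had a promoter peak in both lists, beside 65.3% of all coding genes. Their median percentile difference, Dox minus No Dox, was -2.01 points, beside -2.04 points for all coding genes. TRIM28, itself on chromosome 19, had a fold of 13.8 at the 95.5th percentile in Dox and of 13.8 at the 95.7th percentile in No Dox. SETDB1 stood at the 68.4th percentile in Dox and the 79.3rd in No Dox. The largest differences were at MORC2, which silences with the HUSH complex (75.7 in Dox, 26.2 in No Dox), CBX1, which encodes HP1 beta (70.5 in Dox, 36.7 in No Dox), and HDAC1 (56.9 in Dox, 84.3 in No Dox). The HDAC1 peak was nonetheless wider in Dox, at 1230 bp against 488 bp in No Dox. UHRF1, which guides maintenance DNA methylation, had a promoter peak in Dox alone, with a fold of 3.62 at the 33.3rd percentile, and ZFP57, a guardian of imprints, had none.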

How the data were processed

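The 4 ATAC-seq libraries (2 per condition) were aligned by the authors to hg38 with BWA, the replicates were pooled, and peaks were called with MACS2 at an FDR of 0.05. Tool versions are not given in the sources used here. The deposited fold enrichment of each peak is a ratio of pooled signal to background at the summit, the deposited −log10 q-value was used only to filter, and the deposited summit offset gave the summit position. The study's differential regions from read counts were not analysed here. Members and lists were chosen with earlier results of these data known.

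Genes, TSSs and coding exons were taken from GENCODE release 44, sequence from the same build with pysam 0.24.0 and samtools 1.23.1. Lines of 1 peak interval were reduced to the summit of highest fold. A promoter peak overlapped 1 kb on either side of any TSS, and the highest fold was kept. On chromosomes 1 to 22 and X, overlapping or adjoining peaks of both lists made 1 region. Promoter GC and CpG were read over 1000 bp, motifs over 300 bp. Fingers and KRAB boxes are matches of fixed patterns in translated reading frames. Intervals of shares are Clopper-Pearson (scipy 1.17.1). The steps were tested on simulated data, where all 2000 promoter states were recovered.

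Named were all members open in 1 condition alone, and of those open in both the 5 highest folds per list, the 6 largest percentile shifts in each direction and the 4 widest peaks per list. Closed members with regions within 20 kb (up to 3 per cluster), the 6 condition-only regions of highest fold in each direction more than 1 kb from any coding TSS, cofactor genes that changed state and the 3 members on either side of the 1 kb limit were named too. Others were singled out after their values were seen (the promoters shown, MORC2, CBX1, HDAC1, SETDB1, TRIM28, ZNF57, ZNF71, ZNF91, ZNF628 and the closed neighbours in cluster D). No column of another sample was used. The alternatives covered the window, the TSSs, the q-value, the list length, peak strength, the symbol rule, the merging of peaks and the cluster gap. How reads were placed among near-identical copies is not given in the sources used here.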

Additional observations from a re-analysis of the deposited data

How the results depend on the processing

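Of 84 recomputed values, 78 were labelled the same as the value reported and 6 moved. Shares and medians were the same if they stayed within the interval of the value reported. Counts were the same within a set fold change, whichever members made them up. Members without a promoter peak thus kept the label at 80, against 56, with the 5′ end of the gene record only. So did the 5 open in Dox alone at a q-value of 1e-05 or less, which held 1 of the 7. When weak peaks (under the list's median fold) were dropped, 4 members were open in Dox alone, against 7, of which ZNF579 was the 1 that remained, beside 4.55% of all coding genes. With a q-value of 1e-05 or less, 3 members were open in No Dox alone, against 6, and 1 of the 6 remained, beside 3.29% of all coding genes. With lists of equal length, 3 of the 6 remained and no other member was added, beside 2.59%. With lists of equal length, the Dox-only share of condition-only regions was 65.3%, against 48.3%, where that setting drops only No Dox peaks. Which kind was more frequent changed with the setting: Dox-only regions were the majority also within 10 kb (58.2%), within 50 kb (53.2%), at a q-value of 1e-05 or less (53.1%) and without cluster D (56.3%). The median percentile difference was -4.89 points at promoters of GC under 55% and -0.76 points at 65% or more, against -2.72 points; the GC ranges, members with unshared peaks and the share without cluster D were added after the data were seen. A cluster gap of 500 kb gave 10 clusters and one of 2 Mb gave 6, and in both cluster D stayed whole. No paired analysis was possible because each deposited list pools both replicates, and for the same reason no replicate could be left out. Depth per library is unknown, so a peak missing from 1 list was not detectable there, which is no sign that the site was closed.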

Other observations

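Chromosome 19 also holds 24 other coding finger genes by name, which the symbol rule leaves out (ZSCAN, ZFP, ZIM and ZIK genes, and ZNF symbols with a letter or a readthrough suffix). Of these, 15 had a promoter peak in both lists, 7 in neither, 2 in No Dox alone and 0 in Dox alone. The 2 were ZFP28, with a fold of 3.81 at the 52.3rd percentile, and ZSCAN18, with a fold of 2.54 at the 1.01st percentile of the No Dox list. ZSCAN5A was the strongest, with a fold of 20.8 at the 98.7th percentile in Dox and of 26.7 at the 99.3rd percentile in No Dox. ZNF780A and ZNF780B, near copies of each other, differed in both lists. ZNF780A was at the 52.7th percentile in Dox and the 76.6th in No Dox, and ZNF780B at the 33.3rd in Dox and the 15.1st in No Dox.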
